A study of Mus musculus with 267 samples.

Results

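RNA polymerase II (Pol II) was compared between bone marrow-derived macrophages of C57BL/6J mice left untreated and the same kind of cells given interleukin-4 (IL-4) at 20 ng/ml for 24 h. All 67742 open chromatin regions of the C57 table were taken as members, and the comparison used 7 of the 267 libraries of the series, 3 at 24 h and 4 basal. Of these regions, 12060 were annotated as promoters around a transcription start site and 50469 lay in introns or between genes, here called distal regions, and 5213 lay in exons, untranslated regions or at transcription termination sites. At an adjusted p under 0.05 by limma, Pol II was called higher at 151 regions (0.223%) and lower at 65 (0.096%). These counts rested on single libraries, and leaving out 1 library gave 0 to 689 called regions. The largest rises were in an intron of Tmem26, just past the 3′ end of Socs1 and at the termination site of Cish, and the largest falls were at the paired receptor genes Pilra and Pilrb1 and at the fractalkine receptor gene Cx3cr1.

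The series asked how the macrophage response to IL-4 differs between mice of 5 inbred strains, and its libraries measured histone marks, Pol II and transcription factors by chromatin immunoprecipitation. The macrophages were grown from bone marrow with M-CSF in every group. Each library was a chromatin immunoprecipitation (ChIP-seq) with an antibody to Pol II after formaldehyde fixation, and the study's methods call the libraries biological replicates, but the labels do not tie a library to a mouse or culture, so p-values measure only the spread between these libraries.

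Pol II is the enzyme that transcribes messenger RNA. It gathers at promoters, where it can pause before elongation, travels through gene bodies and past the 3′ end before it terminates, and is also found at active enhancers, which it transcribes into short RNAs. IL-4 signals through its receptor and Janus kinases to the transcription factor STAT6, which binds paired half-sites and turns on the genes of alternative macrophage activation. That state is known for arginine transport and metabolism, lectin receptors and secreted chitinase-like proteins, and for reduced inflammatory gene activity.

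The regions below are shown because most of them carry a pair of STAT half-sites, the searched letters whose share differed most between rising regions and all regions. Each is the plus strand of GRCm38.p6, the sequence of the mm10 build the authors used, over the central 300 bases of the region or the exon-free part of them. Capitals mark matches, on either strand, to TTC and GAA with 4 bases between (STAT half-sites 4 bases apart), TTCNNNGAA (STAT half-sites 3 apart) and TGANTCA (AP-1).
Pim1 upstream region (chr17:29443768-29444067): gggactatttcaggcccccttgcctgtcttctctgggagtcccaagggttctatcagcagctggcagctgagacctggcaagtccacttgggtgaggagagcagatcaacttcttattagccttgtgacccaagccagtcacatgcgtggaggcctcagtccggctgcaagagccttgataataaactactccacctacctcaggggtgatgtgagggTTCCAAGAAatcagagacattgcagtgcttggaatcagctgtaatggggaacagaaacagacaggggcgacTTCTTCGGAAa
Exo5 downstream region (chr4:120914534-120914833): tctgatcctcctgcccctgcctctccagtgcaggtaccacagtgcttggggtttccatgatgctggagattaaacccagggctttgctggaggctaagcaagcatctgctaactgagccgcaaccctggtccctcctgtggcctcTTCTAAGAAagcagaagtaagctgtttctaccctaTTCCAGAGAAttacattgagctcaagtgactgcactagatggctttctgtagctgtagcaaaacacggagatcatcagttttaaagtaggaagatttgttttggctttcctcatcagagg
Stt3b upstream region (chr9:115387323-115387622): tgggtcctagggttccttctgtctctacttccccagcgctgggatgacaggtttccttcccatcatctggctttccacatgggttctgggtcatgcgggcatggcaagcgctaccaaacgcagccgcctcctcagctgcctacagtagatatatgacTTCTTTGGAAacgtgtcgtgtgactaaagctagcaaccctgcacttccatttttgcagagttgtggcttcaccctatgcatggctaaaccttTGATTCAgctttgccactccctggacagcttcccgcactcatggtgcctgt
Gm6116 promoter (chr5:74948563-74948862): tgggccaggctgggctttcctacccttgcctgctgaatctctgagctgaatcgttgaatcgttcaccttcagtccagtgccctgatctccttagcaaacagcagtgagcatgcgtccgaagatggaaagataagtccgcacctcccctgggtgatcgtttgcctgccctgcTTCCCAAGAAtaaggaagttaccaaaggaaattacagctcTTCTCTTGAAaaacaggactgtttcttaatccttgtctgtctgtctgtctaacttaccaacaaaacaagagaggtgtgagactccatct
Itgax promoter (chr7:128129280-128129546): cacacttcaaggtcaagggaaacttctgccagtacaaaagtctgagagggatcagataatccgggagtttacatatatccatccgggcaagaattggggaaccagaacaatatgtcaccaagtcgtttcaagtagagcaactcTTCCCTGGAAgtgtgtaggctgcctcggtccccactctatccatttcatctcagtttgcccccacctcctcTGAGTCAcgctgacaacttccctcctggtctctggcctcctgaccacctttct
Tmem26 intronic region (chr10:68725538-68725837): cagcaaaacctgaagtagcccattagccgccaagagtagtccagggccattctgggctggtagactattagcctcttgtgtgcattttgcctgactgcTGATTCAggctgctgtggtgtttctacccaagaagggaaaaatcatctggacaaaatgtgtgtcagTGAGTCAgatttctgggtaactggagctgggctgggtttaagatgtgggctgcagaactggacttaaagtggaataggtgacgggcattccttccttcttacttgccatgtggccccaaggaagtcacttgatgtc

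Each of the first 5 windows holds at least 1 half-site pair 4 bases apart, and the Gm6116 promoter holds 2. The Tmem26 region, which had the largest rise of all, holds 2 AP-1 matches and no STAT match in this window.

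Depth ranged from 7796479 to 21973750 tags per library, and 24 h replicate 3 was the shallowest. A level below is the number of tags in a 1000-bp region scaled to 10000000 tags per library (normalized tags), and a log2 fold is that of limma on log2(normalized tags + 1), which understates the change of low regions. The regions together held 31.2% ± 5.74 (SD, n = 3) of the tags at 24 h and 31.6% ± 4.53 (SD, n = 4) of the basal tags (exact two-sided permutation test, p = 0.914, where 3 against 4 libraries cannot go below 0.0571). Over all regions the median log2 fold was -0.031. Of 10 macrophage marker genes all had an open region at their start, whereas 0 of 7 T cell marker genes had one and the summed levels at B cell, mast cell, dendritic cell, fibroblast and erythroid marker genes were at most 26.8 in any library. The 2 neutrophil marker genes with a region summed to between 12.8 and 37.4 at 24 h and between 27.3 and 94.8 in basal libraries, and their part in the falls was not tested. The macrophage markers summed to between 2771.8 and 4112.4 at 24 h and between 4114.2 and 6244.8 basal, with 8 of 10 lower and Cd14 called. Levels are of a whole culture, in which fewer cells of a type and less Pol II per cell cannot be told apart.

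A region was called at an adjusted p under 0.05 (limma, Benjamini-Hochberg over all 67742 regions). By that rule 216 regions were called, 0.319% of those tested, with 151 higher at 24 h (0.223%) and 65 lower (0.096%). Of all regions 8.6% had 24 h and basal libraries that did not overlap, and all 216 called regions were among them. Overlapping windows reduced the 151 to 141 separate loci and the 65 to 57. With the replicate number as a block, 548 regions were called, 281 higher and 267 lower, and 206 of the 216 stayed called. Same-numbered libraries deviated together, but some different-numbered ones did too, so the data do not single out the number as a pairing. Deviations of 24 h replicate 1 correlated at 0.191 with basal replicate 1 and at 0.272 with basal replicate 2. The labels do not say what the numbers mark.

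The libraries also fell into 2 sets in the data, 24 h replicates 1 and 2 with basal replicates 1 and 2, and 24 h replicate 3 with basal replicates 3 and 4. With the set as a term, a choice made after seeing the data, 1563 regions were called, 752 higher and 811 lower, and all 216 stayed called. The count rested on single libraries. It was 0 without 24 h replicate 2 (5538 at an unadjusted p under 0.05 by limma, against 5977 with all libraries) and 1 without 24 h replicate 1. Without basal replicate 1 it was 689, and without basal replicates 2, 3 and 4 it was 64, 38 and 31. Of 43 called regions named by rule, 43 lost the call without 24 h replicate 2, 42 without 24 h replicate 1 and 10 without 24 h replicate 3. Without basal replicates 2, 3 and 4, 22, 30 and 33 lost it. None changed direction, but leaving out a library could not reverse them, since their 24 h and basal libraries did not overlap. On whole reads edgeR called 386 regions, 309 higher and 77 lower, and DESeq2 called 1099, 674 higher and 425 lower, with all 7 libraries.

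At promoters, 25 of 12060 regions were called (0.207%), 14 higher (0.116%) and 11 lower (0.0912%); the block raised this to 55. The 14 rising promoters had a low median of 8.27 normalized tags before IL-4, which became 47.3. Egr2 and Atp6v0d2 were exceptions with much higher basal levels, given below. The 11 falling promoters belonged to 10 genes and went from a median of 100.0 to 24.1. All promoters had medians of 82.6 and 86.5, and their median log2 fold was 0.05.

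The largest promoter rise was at Flt1, which encodes vascular endothelial growth factor receptor 1. This region, chr5:147725967-147726967, had 58.0, 38.7 and 35.9 normalized tags at 24 h and 0, 7.22, 0.54 and 0 in the basal libraries. All 3 treated libraries were far above all 4 basal ones, and the log2 fold was 4.55 ± 0.66 (SE; adjusted p = 0.0101). An overlapping region over the 5′ UTR had 56.7, 52.8 and 55.1 at 24 h and 2.5, 12.8, 1.07 and 2.03 in basal libraries.

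Slc7a2 encodes a cationic amino acid transporter that brings arginine into macrophages. At its promoter (chr8:40861966-40862966) Pol II was 241.4, 194.8 and 69.3 normalized tags at 24 h against 40.6, 12.8, 2.14 and 4.05 basal, and the log2 fold was 3.93 ± 0.69 (adjusted p = 0.0265). The lowest treated library, 24 h replicate 3, still lay above the highest basal one, replicate 1. The call was lost without either 24 h replicate 1 or 2 (adjusted p = 0.216 and 0.205) or basal replicate 2, 3 or 4 (0.0535, 0.0732 and 0.142).

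Ksr2, a scaffold of the Ras-MAP kinase pathway, had 42.0, 53.2 and 37.2 normalized tags at 24 h and 5.62, 4.81, 3.75 and 1.01 basal. The difference was 3.35 ± 0.49 on the log2 scale (adjusted p = 0.0101), with groups that did not overlap. Socs2, a feedback inhibitor of cytokine receptors, had 48.7, 36.4 and 33.4 at 24 h against 3.74, 14.4, 4.29 and 6.08 basal (log2 fold 2.47 ± 0.47, adjusted p = 0.0393). Mcf2l, a guanine nucleotide exchange factor, had 48.0, 30.5 and 6.41 at 24 h against 1.25, 1.6, 1.61 and 2.03. Here 24 h replicate 3 stood well below the other two but above every basal library, and the log2 fold was 3.11 ± 0.6 (adjusted p = 0.0393). Among regions with a mean of at least 8 normalized tags alone, its adjusted p was 0.0616.

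Mgl2, a galactose-binding lectin used as a marker of alternative activation, had 42.0, 28.7 and 61.6 normalized tags at 24 h and 8.11, 3.21, 5.36 and 12.2 basal (log2 fold 2.52 ± 0.47, adjusted p = 0.0385). Itgb8, the beta subunit of an integrin that activates TGF-beta, had 48.7, 36.0 and 66.7 against 11.2, 10.4, 8.58 and 7.09 (2.29 ± 0.4, adjusted p = 0.0247). The basal libraries ranged from 3.21 to 12.2 at Mgl2 and from 7.09 to 11.2 at Itgb8, and at both genes all were well under the treated ones. Atp6v0d2, a subunit of the vacuolar proton pump, had the highest level of the 10 named rises, with 567.6, 302.2 and 336.1 at 24 h and 174.1, 57.8, 62.2 and 44.5 basal. Basal replicate 1 was the highest basal library and was still below all treated ones, and the log2 fold was 2.39 ± 0.42 (adjusted p = 0.027).

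Reads were sparse at Rnase2a, a member of the eosinophil-associated ribonuclease family whose near-identical paralogues make the assignment of reads uncertain. Its promoter had 52.7, 3.64 and 32.1 normalized tags at 24 h and 0, 0, 0.54 and 1.01 basal, or 112 reads against 2. The ratio of reads per library total was 71.3, with an exact 95% interval of 19.3 to 596.3 that covers counting error only. The log2 fold was 3.93, and among regions with a mean of at least 8 normalized tags alone the call was lost (adjusted p = 0.0661 by limma). It was also lost on leaving out any library other than basal replicate 1. At the promoter of the non-coding gene Gm6116, whose nearest coding start (Chic2) is 96.1 kb away, Pol II was 20.0, 30.9 and 14.1 at 24 h and 1.87, 0.8, 0.54 and 2.03 basal. Its log2 fold was 3.29 ± 0.51 (adjusted p = 0.012), and it is the promoter with 2 half-site pairs shown above.

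The other 4 rising promoters were Itgax, Plekhf1, Matk and Egr2. Itgax, which encodes the integrin subunit CD11c, had 111.4, 32.3 and 138.5 normalized tags at 24 h and a narrow basal range of 14.2 to 18.7 (log2 fold 2.29 ± 0.45, adjusted p = 0.0455). Egr2, a zinc finger transcription factor, was well occupied before treatment, with 170.3, 105.9, 67.0 and 123.5 basal and 420.8, 411.4 and 321.9 at 24 h. Its log2 fold of 1.78 ± 0.34 (adjusted p = 0.0406) was the smallest of the 14. Plekhf1 and Matk had log2 folds of 2.26 and 2.19.

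The largest promoter falls were at Pilrb1 and Cx3cr1. Pilrb1, an activating receptor paired with the inhibitory Pilra, had 0.67, 2.73 and 0 normalized tags at 24 h and 28.7, 16.1, 18.8 and 11.1 basal (log2 fold -3.34 ± 0.55, adjusted p = 0.0171). At Cx3cr1, the receptor for fractalkine, Pol II was 2.67, 3.64 and 7.7 at 24 h against 26.8, 29.7, 68.6 and 84.0 basal. The treated libraries were all below the lowest basal one, and the log2 fold was -3.16 ± 0.49 (adjusted p = 0.013). An overlapping promoter region of the same gene was also called, at -3.16 ± 0.61. Clec4d, a C-type lectin receptor, was much more occupied, with 127.4, 88.7 and 56.4 at 24 h and 554.1, 391.6, 399.8 and 189.4 basal (-2.04 ± 0.39, adjusted p = 0.0392).

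Nlrp3, the sensor of an inflammasome, had 109.4, 52.3 and 42.3 normalized tags at 24 h and 258.3, 262.4, 303.3 and 221.8 basal, a log2 fold of -2.04 ± 0.35 (adjusted p = 0.0233). Cd14, a co-receptor for lipopolysaccharide, had 76.0, 71.9 and 91.1 against 213.4, 235.1, 302.8 and 314.9 (-1.72 ± 0.3, adjusted p = 0.027). In both genes the 2 groups were separated by a gap wider than the spread within the treated libraries. Cd14 had the smallest fall of the 11 regions.

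The remaining falls were at Icosl, Ifitm6, Igfbp4, Egr3 and the non-coding F630028O10Rik. Icosl, the ligand of a T cell co-stimulator, had 11.3, 11.8 and 5.13 normalized tags at 24 h and 32.5 to 49.0 basal (log2 fold -2.11 ± 0.4, adjusted p = 0.0392). Ifitm6, of the interferon-induced transmembrane family, had 22, 14.1 and 44.9 against 80.5 to 127.0 (-2.09 ± 0.39, adjusted p = 0.036), and edgeR gave an adjusted p of 0.0507. Igfbp4, a binding protein of insulin-like growth factors, had 14.7, 34.6 and 23.1 against 77.8 to 130.8 (-2.05 ± 0.37, adjusted p = 0.0306). F630028O10Rik, 53.7 kb from the start of Vsig4, had 40.7, 46.9 and 69.3 against 119.2, 329.0, 323.7 and 270.4 (-2.23 ± 0.38, adjusted p = 0.0233). Egr3, an immediate early transcription factor related to Egr2, had 2.67, 0.91 and 0 against 6.86, 12.8, 15 and 12.2 (-2.68 ± 0.55, adjusted p = 0.0497), a call that was lost with the replicate block (adjusted p = 0.075) and by edgeR (adjusted p = 0.0685).

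**Figure D1:**
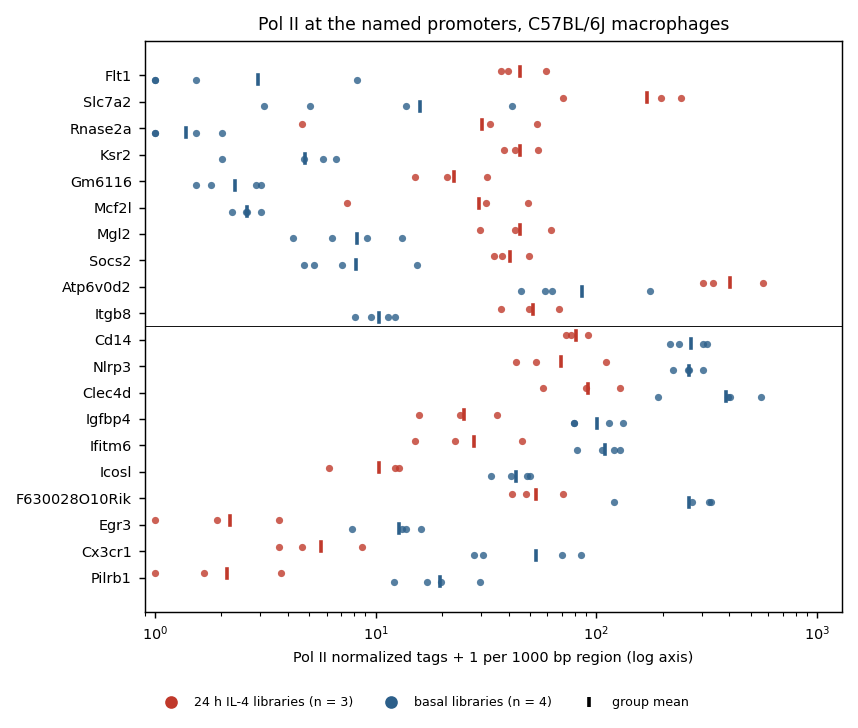
Pol II in each of the 7 libraries at the 10 promoters with the largest rise and the 10 genes with the largest fall, as normalized tags + 1 per 1000-bp region on a log axis; red points are the 3 libraries at 24 h of IL-4, blue points the 4 basal libraries and short bars the group means. In all 20 rows the red and blue points are separate, and Rnase2a and Mcf2l each have 1 red point far below the other two.

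Distal regions held 175 of the 216 calls (0.347% of 50469), 125 higher (0.248%) and 50 lower (0.0991%), and the block raised this to 451. Of intergenic regions 0.303% were called higher and 0.119% lower (0.423% in all), and of introns 0.205% and 0.0836% (0.289% in all). The 125 rises started from a median of 5.59 normalized tags and reached 46.5, and the 50 falls went from 56.1 to 13.4, whereas all distal regions had medians of 11.2 and 10.2. The share called was 0.46% of the regions in which open chromatin was listed at 24 h only (0.408% higher, 0.0521% lower), 0.313% of those open in both conditions (0.212% and 0.102%) and 0.25% of those listed as basal only (0.139% and 0.111%).

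The largest rise of all was in an intron of Tmem26, a membrane protein gene, 1.9 kb from its start (chr10:68725187-68726187). Pol II there was 244.8, 175.2 and 43.6 normalized tags at 24 h and 13.7, 0.8, 0 and 1.01 basal, a log2 fold of 5.53 ± 0.77 (adjusted p = 0.00791). Every treated library was above every basal one, with 24 h replicate 3 the lowest of its group. The start of Tmem26 itself averaged 165.1 at 24 h and 20.8 basal, also without overlap, but narrowly missed the threshold (log2 fold 3.38 ± 0.69, adjusted p = 0.0506).

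Several of the strongest intergenic rises lay just past the end of a gene. A region 1.0 kb past the 3′ end of Socs1, a feedback inhibitor of Janus kinases, had 501.5, 976.2 and 123.1 normalized tags at 24 h against 16.9, 13.6, 10.7 and 3.04 basal (log2 fold 5.22 ± 0.6, adjusted p = 0.0036). At the Socs1 promoter the same libraries had 508.9, 915.6 and 203.9 against 183.4, 239.1, 156.0 and 79.0, which overlapped and were not called by limma (1.58 ± 0.47, adjusted p = 0.202). On whole reads edgeR (adjusted p = 0.0457) and DESeq2 (adjusted p = 0.00118) called this promoter higher. The contrast between the gene's start and its end was thus in the basal level, 164.4 on average at the promoter and 11.1 past the end. Cish, another feedback inhibitor of STAT signalling, had a similar layout. Its termination site region had 110.0, 158.8 and 28.2 at 24 h and 5.62, 0.8, 0.54 and 2.03 basal (4.88 ± 0.62, adjusted p = 0.00477), and its promoter averaged 129.2 against 25.9 (2.41 ± 0.67, adjusted p = 0.162, and 0.0198 with the block).

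A region 0.9 kb past the end of Slc7a2 and 3.1 kb upstream of Pdgfrl had 200.8, 151.1 and 30.8 normalized tags at 24 h against 25, 1.6, 0 and 1.01 basal (log2 fold 4.86 ± 0.87, adjusted p = 0.029, and 0.188 by DESeq2). A region 3.2 kb past the end of Chil3, which encodes the secreted chitinase-like protein Ym1, had 85.4, 74.2 and 43.6 against 3.12, 1.6, 0 and 4.05 (4.61 ± 0.56, adjusted p = 0.00396). Neither overlapped a peak of the 5 transcription factors in either condition, and both had under 8 normalized tags of H3K27ac in every library, with 5.09 the highest. Gpc1 (0.8 kb past its end, 3.55 ± 0.71) and Atp6v0a1 (1.5 kb, 1.81 ± 0.36), another subunit of the vacuolar proton pump, were the other 2 rises past a gene end with group means of H3K27ac under 8, Atp6v0a1 with 8.53 in 1 library. In all, 23 of 66 rising intergenic regions (34.8%) and 7 of 26 falling ones (26.9%) lay within 10 kb past the end of a coding gene, against 18.5% of all intergenic regions. Low H3K27ac, under 8 normalized tags in both group means, was found at 4 of the 66 rises (6.06%), the 4 just named, and at 29.8% of all intergenic regions.

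Other named rises lay far from coding starts. The region 46.8 kb upstream of Pim1, a STAT-induced kinase gene, had 125.4, 103.8 and 28.2 normalized tags at 24 h and 8.11, 3.21, 1.07 and 0 basal (log2 fold 4.61 ± 0.68, adjusted p = 0.0105). The region 77.1 kb upstream of Stt3b, a subunit of oligosaccharyltransferase, had 38.7, 55.1 and 32.1 against 3.12, 3.21, 0.54 and 0 (4.2 ± 0.57, adjusted p = 0.00658). Both carry a STAT half-site pair in the sequences above, and in both the lowest treated library was far above the highest basal one. The region near Exo5, an exonuclease gene, had 68.0, 91.9 and 20.5 against 2.5, 2.41, 0.54 and 1.01 (4.39 ± 0.56, adjusted p = 0.00477), and that 43.0 kb from Gpr65, a proton-sensing receptor gene, had 42.0, 38.7 and 19.2 against 1.87, 0.8, 0.54 and 1.01 (4.03 ± 0.5, adjusted p = 0.00434).

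A stretch of chromosome 14 with genes of the angiogenin family held 2 more. The region near Ang6 had 204.8, 379.5 and 152.6 normalized tags at 24 h and 15.6, 8.02, 19.3 and 7.09 basal (log2 fold 4.19 ± 0.43, adjusted p = 0.00215), the smallest adjusted p among the named regions. Without 24 h replicate 1 it was the only region of all still called (adjusted p = 0.045), and without 24 h replicate 2 its adjusted p was 0.0543. Near Ang5 there were 118 reads at 24 h against 3 basal, or 29.4, 23.7 and 28.2 against 0.62, 0.8, 0.54 and 0, and the ratio of reads per library total was 50.1 (exact 95% interval 16.7 to 246.4). These secreted ribonucleases have close paralogues, so reads could be split between them.

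An intronic region of Pilra had 1.33, 0.46 and 3.85 normalized tags at 24 h against 31.2, 17.6, 28.9 and 25.3 basal (log2 fold -3.36 ± 0.5, adjusted p = 0.0105), the largest fall of all. An intronic region of Cx3cr1, 13.3 kb from its start, had 6.67, 2.28 and 6.41 against 71.1, 31.3, 37.0 and 48.6 (-3.0 ± 0.45, adjusted p = 0.0107). The intergenic region assigned to Xirp1, 19.8 kb from its start, lies in the same block of falls as Cx3cr1 and had 3.33, 5.46 and 16.7 against 59.3, 26.5, 50.4 and 52.7 (-2.55 ± 0.49, adjusted p = 0.0393, and 0.0579 by edgeR). None of these groups overlapped.

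An intronic region of Pou2f2, which encodes the transcription factor Oct-2, had 4.67, 10.9 and 2.57 normalized tags at 24 h and 32.5 to 46.5 basal (log2 fold -2.64 ± 0.45, adjusted p = 0.0233). The region 64.7 kb from St3gal5, the gene of GM3 ganglioside synthase, had 20.7, 5.92 and 11.5 against 60.5, 61.0, 100.2 and 65.8 (-2.53 ± 0.42, adjusted p = 0.0174). The intronic region at Mir5098 had 4.0, 2.28 and 7.7 against 13.1, 31.3, 95.9 and 72.9, with the basal libraries spread more widely than at any other named distal fall (SD 37.9), and the log2 fold was -3.02 ± 0.59 (adjusted p = 0.0437, and 0.0519 with median-ratio scaling). The other named falls, near Sh3tc2, Gm5426, Hecw2 and Fkbpl, ranged from -2.46 to -2.78 with adjusted p from 0.0146 to 0.0312.

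**Figure D2:**
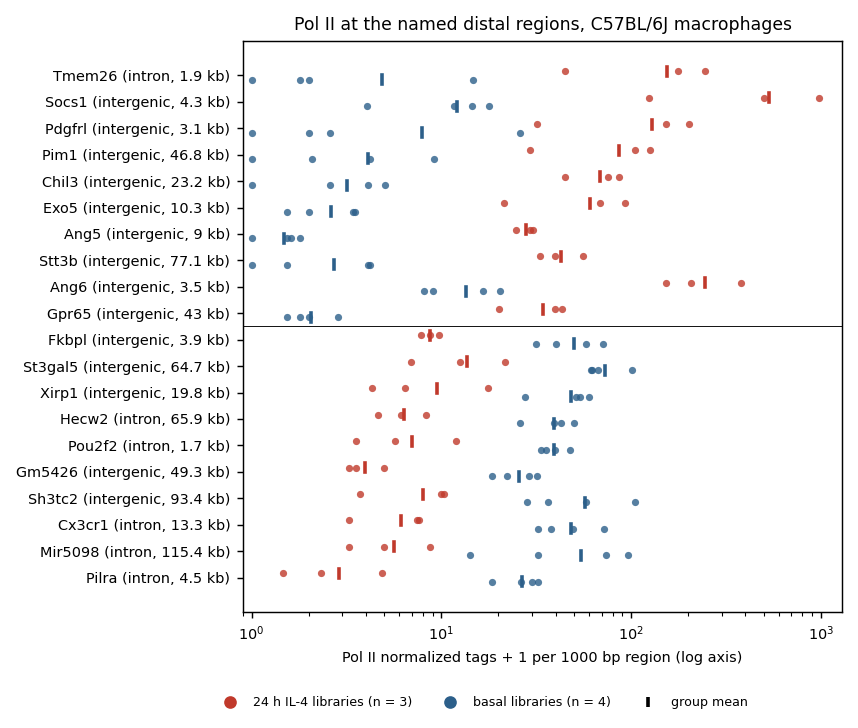
Pol II in each of the 7 libraries at the 10 intronic or intergenic regions with the largest rise and the 10 with the largest fall, as normalized tags + 1 per 1000-bp region on a log axis; labels give the gene assigned to the region, its class and the distance to the nearest coding start, red points are the 3 libraries at 24 h, blue points the 4 basal libraries and short bars the group means. Red and blue points are separate in every row, and most rises start near the left edge, at or close to 0 tags.

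Called regions lay near each other. Within 50 kb, 83 of the 151 rises formed 31 clusters and 40 of the 65 falls formed 15, so that neighbouring calls share a gene and are not separate observations. The longest run of rises was at Flt1, with 6 regions over 54.5 kb and log2 folds from 2.83 to 4.55. Ksr2 had 3 regions at its start (2.58 to 3.35) and 3 more in a later intron (2.85 to 3.06). Nfil3, Batf3 and Bhlhe40, which encode leucine zipper and basic helix-loop-helix factors, had called regions assigned to them, while their promoters were not called. Those of Bhlhe40 lay in its 3′ UTR and 1.5 kb past its 3′ end, and those assigned to Batf3 lay 0.3 to 6.9 kb past the end of Nsl1. Of the falls, Cx3cr1 with Xirp1 had 5 regions over 26.5 kb (-2.55 to -3.16), Nlrp3 had 4 over 3.7 kb (-2.04 to -2.66) and Pilra with Pilrb1 had 4 over 30.0 kb (-2.37 to -3.36).

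Other regions of the same genes mostly had the promoter's direction. Of the 14 genes with a rising promoter, 11 had other regions annotated to them, and 53 of those 57 regions were higher at 24 h, 13 of them called, where 0.223% of all regions were called higher and the median of all was -0.031. Atp6v0d2 held 3 of the 4 exceptions. Its promoter rose by 2.39 while the median of its 5 other regions was -0.22. Of the 10 genes with a falling promoter, 7 had other regions, all 15 of which were lower, 9 of them called, where 0.096% of all regions were called lower. Some of these other windows overlap the promoter window and share its reads, as at Flt1, Icosl and Igfbp4. The shared direction is thus partly the same reads counted again.

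The reverse view, from distal regions over 1 kb from any coding start, gave smaller values at the gene start. The 120 such rises had 86 nearest genes, at a median distance of 11.7 kb, of which 72 had a region at their start. At 67 of these 72 the start was also higher at 24 h, against 59.6% of all gene starts, with a median log2 fold of 0.75, and 5 were called. For the 45 falls, 27 of 30 nearest starts were lower, against 40.3% of all, with a median of -0.88, and 3 were called. The starts were read in the same libraries that chose the distal regions, so the shared direction is no separate support.

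Lists of genes, chosen with earlier results of these data known, were then read at the region nearest each start, which 12512 coding genes had. Of these, 14 were called higher (0.112%) and 10 lower (0.0799%), and the median log2 fold was 0.06. The effectors of alternative activation had 21 of 30 genes with a region, of which 4 rose and 0 fell, with a median of 1.15. The 4 were Slc7a2 (3.93), Flt1 (3.74), Mgl2 (2.52) and Atp6v0d2 (2.39), all genes already named above for their promoter rise. Because of how the list was chosen, its counts and median are no independent support. Arg1, the arginase that defines this state, had 56.7, 94.7 and 38.5 normalized tags at 24 h and 41.8, 21.7, 18.8 and 9.11 basal, so that the lowest treated library was below the highest basal one. It was not called by limma (1.52 ± 0.47, adjusted p = 0.233), though DESeq2 called it (adjusted p = 0.0355). Mrc1, the mannose receptor, averaged 341.8 against 131.1 and was not called by limma either (1.29 ± 0.39, adjusted p = 0.214).

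Of 14 genes of the IL-4 receptor, the JAK-STAT chain and its feedback inhibitors, all with a region, Socs2 alone was called, and the median log2 fold was 0.08. Among 16 transcription factors of the IL-4 response, Egr2 alone was called and the median was 0.45. Batf3, a leucine zipper factor, had 52.0, 81.9 and 96.2 normalized tags at 24 h against 16.9, 30.5, 20.9 and 16.2 basal. Irf4, an interferon regulatory factor induced by IL-4, had 85.4, 75.5 and 85.9 against 25.6, 23.3, 29.5 and 34.4. Neither pair of groups overlapped, and the adjusted p-values were 0.0519 and 0.0626, or 0.0308 and 0.026 with the replicate block. The list medians of these factors were 0.76 without 24 h replicate 3 and 0.73 without basal replicate 1.

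Inflammatory and NF-kB genes had 24 of 29 present, of which 19 were lower at 24 h, with 0 called higher, 2 called lower (Nlrp3 and Cd14) and a median log2 fold of -0.71. Tlr2, a receptor for bacterial lipoproteins, had 53.4, 47.3 and 15.4 normalized tags at 24 h and 202.2, 151.7, 72.3 and 78.0 basal, groups that did not overlap and were not called (-1.72 ± 0.46, adjusted p = 0.145), though the replicate block (0.0106) and DESeq2 (0.00721) called it. The direction was not shared by the whole list, since Ccl2, a monocyte chemokine, averaged 248.3 against 92.0 (1.35 ± 0.43, adjusted p = 0.262). Monocyte and macrophage surface receptors had 22 of 27 present, with Itgax higher and Pilrb1, Cx3cr1 and Clec4d lower, and a median of -0.42. Clec7a, the beta-glucan receptor, averaged 386.7 against 125.6 and did not pass (1.56 ± 0.33, adjusted p = 0.0598). Of 18 immediate early genes Egr3 alone was called, with a median of -0.2.

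No gene was called by limma in 8 lists. Macrophage lineage factors (9 genes, median -0.26) had 1 gene with an unadjusted p below 0.05, while edgeR called 0 and DESeq2 called 1. Without 24 h replicate 3 their median was 0.2. Lipid handling genes (23 present, median -0.04) had 6 such genes, 2 higher and 4 lower, and there edgeR called 0 and DESeq2 called 1. Major histocompatibility class II genes (9, median 0.74), cell cycle genes (32, median -0.15), lysosome genes (22, median 0.09) and housekeeping genes (15, median -0.1) each had 1 such gene, and interferon-stimulated genes (27, median -0.18, and 0.02 by edgeR) and glycolysis genes (17, median 0.03) had 0. In all 6 of these lists edgeR and DESeq2 called 0. H2-Aa, an antigen-presenting chain of class II, had 149.4, 76.5 and 42.3 normalized tags at 24 h and 31.2, 100.3, 18.8 and 24.3 basal.

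Of 10 genes that the study itself uses as examples, and which were therefore not chosen independently of these samples, Slc7a2 and Egr2 were called. Msx3, a homeobox factor, had 62.7, 145.2 and 34.6 normalized tags at its start at 24 h and 46.8, 5.62, 0.54 and 3.04 basal, overlapping because of basal replicate 1 (3.38 ± 0.83, adjusted p = 0.105, and 0.0439 with the block). A region 2.9 kb upstream of it was called, with 47.4, 77.4 and 28.2 against 6.86, 1.6, 1.07 and 1.01 (3.98 ± 0.56, adjusted p = 0.00806).

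**Figure D3:**
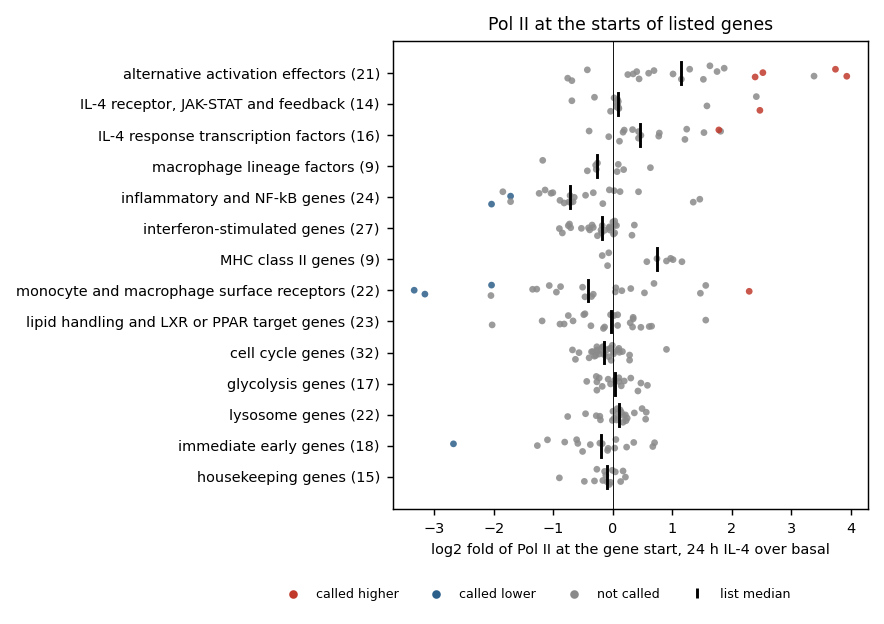
Log2 fold of Pol II at the region nearest the start of each listed gene, 24 h of IL-4 over basal, with the number of genes that have a region in brackets; each point is a gene, red is called higher, blue called lower, grey not called, and black bars are list medians. Alternative activation effectors lie mostly to the right with a median of 1.15, inflammatory genes mostly to the left with a median of -0.71, and the housekeeping list is centred at -0.1. The lists were chosen with earlier results of these data known.

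The histone marks of the same culture type were counted over the same windows and did not enter the choice of regions. H3K27ac, the acetylation of active promoters and enhancers, was higher at 149 of the 151 rises with a median log2 fold of 2.79, and lower at 64 of the 65 falls with a median of -2.03, against -0.28 over all regions. It was higher at 39.5% of all regions. At the Slc7a2 promoter its 2 libraries at 24 h had 395.6 and 149.0 normalized tags against 9.5 and 6.42 basal. At the Tmem26 intron they had 103.6 and 47.2 against 0.68 and 3.57. With 2 libraries per group limma called 0 regions for H3K27ac in the whole table (2 with median-ratio scaling), but 14904 had an unadjusted p under 0.05, and these included 131 of the 151 rises and 61 of the 65 falls.

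H3K4me3, the mark of active promoters, was higher at 142 of the 151 rises (median 1.45) and lower at 50 of the 65 falls (median -0.63), against a median of 0.11 over all regions, of which 56.1% were higher. H3K4me2, found at promoters and enhancers alike, depended on scaling. As deposited it was higher at 84 of the 151 rises and at 17.4% of all regions, with medians of 0.12 and -0.69. With median-ratio scaling it was higher at 126 of the 151 and at 48.8% of all regions, with medians of 0.77 and -0.01. At the Slc7a2 promoter H3K4me2 was lower at 24 h as deposited, with 48.8 and 41.7 against 85.8 and 104.9, while H3K4me3 was higher, with 368.5 and 428.4 against 138.3 and 140.9.

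Macrophages of the other 4 strains were measured in libraries of their own, each strain in a table normalized separately and matched here by centres within 500 bp. In BALB/cJ, 112 of the 151 rises had a matching region and all 112 were higher at 24 h, 81 of them called (0.663% of that table was called higher), and all 59 matched falls were lower, 3 of them called (0.0444% was called lower). In PWK/PhJ all 105 matched rises were higher, 84 called (1.44%), and all 52 matched falls were lower, 17 called (0.281%), where 1.72% of that table was called. In SPRET/EiJ 93 of 95 rises and 39 of 40 falls had the direction seen in C57BL/6J, with 45 (0.782%) and 10 (0.27%) called. In NOD/ShiLtJ all 120 rises and 59 falls had it too, with 0 regions called by limma in that table of 2 libraries per group but 5271 at an unadjusted p under 0.05. Of all regions, 68.7% were higher at 24 h in BALB/cJ, 48.0% in NOD/ShiLtJ, 47.5% in PWK/PhJ and 40.7% in SPRET/EiJ.

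Across strains the median log2 fold at matched rises was 2.88 in BALB/cJ, 2.6 in NOD/ShiLtJ, 2.37 in PWK/PhJ and 1.62 in SPRET/EiJ, and at matched falls -0.86, -1.59, -1.35 and -1.08, where all regions of those tables had medians of 0.32, -0.02, -0.03 and -0.1. The difference between strains was not tested. The Tmem26 intron had 302.7, 217.7 and 251.4 normalized tags at 24 h in PWK/PhJ against 2.82, 4.9 and 3.79 basal, and 125.1, 64.3 and 51.7 against 2.9, 3.05 and 3.59 in SPRET/EiJ. The Atp6v0d2 promoter in SPRET/EiJ had 430.1, 332.9 and 374.0 against 125.8, 236.0 and 355.3, groups that overlapped (log2 fold 0.78, adjusted p = 0.332). Of 72 rises matched in all 4 other strains, 70 were higher in each, and all 37 such falls were lower in each. In at least 1 other strain, 114 of the 151 rises and 22 of the 65 falls were called, with unmatched regions counted as not called. The share of all regions called in at least 1 other strain was not counted, so these 2 counts have no background beside them.

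**Figure D4:**
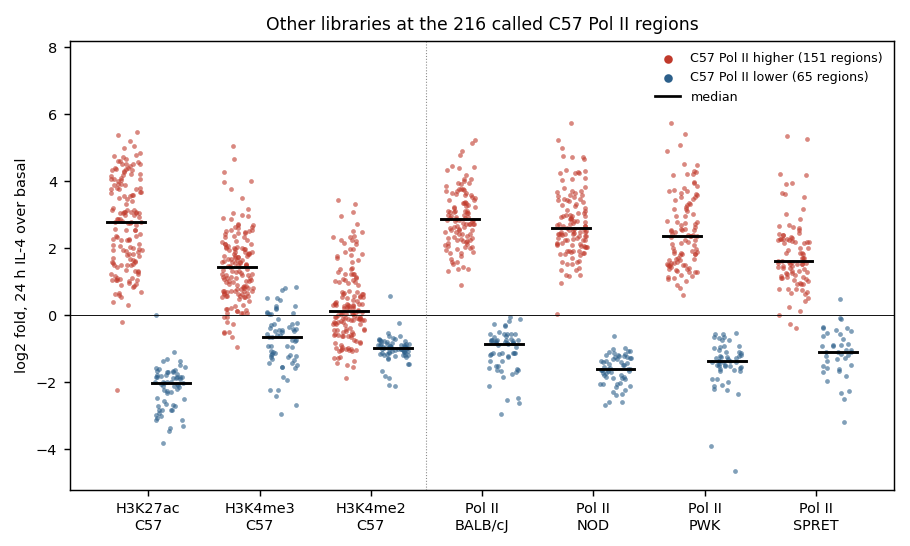
Log2 fold, 24 h of IL-4 over basal, of 3 histone marks in C57BL/6J macrophages and of Pol II in 4 other strains at the called C57BL/6J Pol II regions; each point is a region, red where C57BL/6J Pol II was higher, blue where it was lower, and black bars are medians. The red H3K27ac points centre at 2.79 and the blue ones at -2.03, H3K4me2 red points straddle 0 as deposited, and nearly all strain points lie on the side of their colour.

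Libraries at 1 h and 6 h share the basal libraries of the 24 h comparison, so their values are given side by side and nothing is tested across them. They come from a separate table of the same scaling, with its own regions matched by centre. At the Tmem26 intron Pol II was 151.8 normalized tags in the 1 h library and 209.7 and 220.8 in the 6 h libraries, close to the 24 h mean of 154.5. The region past the end of Chil3 had 51.3 at 1 h and 262.8 and 478.7 at 6 h, both above all of the 24 h libraries. Flt1 had 11.7 at 1 h, 7.12 and 58.5 at 6 h, which lay on both sides of the 24 h libraries, and a 24 h mean of 44.2. Of the falls, Cx3cr1 had 1.02 at 1 h and 2.19 and 1.46 at 6 h, against a 24 h mean of 4.67, whereas Clec4d had 231.0 at 1 h, 299.0 and 131.1 at 6 h and a 24 h mean of 90.9. With 1 library at 1 h, these times carry no replicate error of their own there.

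Peaks of 5 transcription factors, listed by the authors once per condition, were overlapped with the called windows. A STAT6 peak at 24 h lay in 124 of the 151 rises (82.1%, against 46.6% of all regions) and a basal STAT6 peak in 38 (25.2% against 39.3%). In 86 of them (57%, against 14.4% of all regions) the peak was listed at 24 h and not in basal cells. At the 65 falls a STAT6 peak was listed in 56 in basal cells (86.2%) and in 47 at 24 h (72.3%), and in 1 at 24 h alone (1.54%). PPARg, a nuclear receptor for lipids, had peaks at 98 rises at 24 h (64.9% against 39.4%) and at 11 in basal cells (7.28% against 8.92%). EGR2 peaks were at 85 rises at 24 h (56.3% against 38.5%), and at 12 of the 14 rising promoters (85.7% against 64.2% of promoters) and 3 of the 11 falling ones (27.3%). At all 65 falls EGR2 peaks at 24 h were in 28 (43.1%), and at the 50 distal falls in 24 (48.0% against 33.2% of distal regions). PPARg peaks were in 35 falls at 24 h (53.8%) and in 18 in basal cells (27.7%).

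C/EBPb and PU.1 are factors of macrophage identity. C/EBPb had basal peaks in 49 of the 65 falls (75.4% against 22.4% of all regions) and 25 of the 151 rises (16.6%), and PU.1 had them in 57 falls (87.7% against 64.5%) and 72 rises (47.7%). At 24 h, C/EBPb peaks were listed in 84 rises (55.6% against 40.4%) and 48 falls (73.8%). PU.1 peaks at 24 h were listed in 112 rises (74.2% against 67.1%) and 56 falls (86.2%), and 42 of these rises had none in basal cells (27.8% of the 151, against 7.22% of all regions). When each list was halved to the peaks with higher scores, the STAT6 peaks at 24 h covered 108 rises (71.5% against 26.2%) and 30 falls (46.2%).

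In the central 300 bp of each region, STAT half-sites, TTC and GAA, 4 bases apart were found in 57 of the 151 rises (37.7%), in 3 of the 65 falls (4.62%) and in 7.19% of the 67730 regions that could be read. Among distal rises the count was 53 of 125 (42.4%, against 7.98% of distal regions). TTCNNNGAA, the pair 3 bases apart, was in 22 rises (14.6%) and 8.14% of all regions, and 5 falls (7.69%). TGANTCA, the AP-1 letters, were in 48 rises (31.8%) and 13 falls (20.0%), against 19.7% of all.

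Motif letters of the other factors were near or below the share of all regions. TTGCNNAA (C/EBP) was in 17.9% of rises and 18.5% of falls against 15.8%, GAGGAAGT (PU.1) in 5.3% and 9.23% against 9.53%, GCGNGGGCG (EGR) in 1.32% and 1.54% against 3.3%, and GGGA with TTCC 2 bases apart (NF-kB) in 1.32% and 3.08% against 2.03%. The exact direct repeat of PPAR with RXR, AGGTCA and AGGTCA 1 base apart, was in 0 called regions and 0.0561% of all. All were searched on both strands, a window could hold more than 1 motif, and a match is a stretch of letters and not a bound site.

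**Figure D5:**
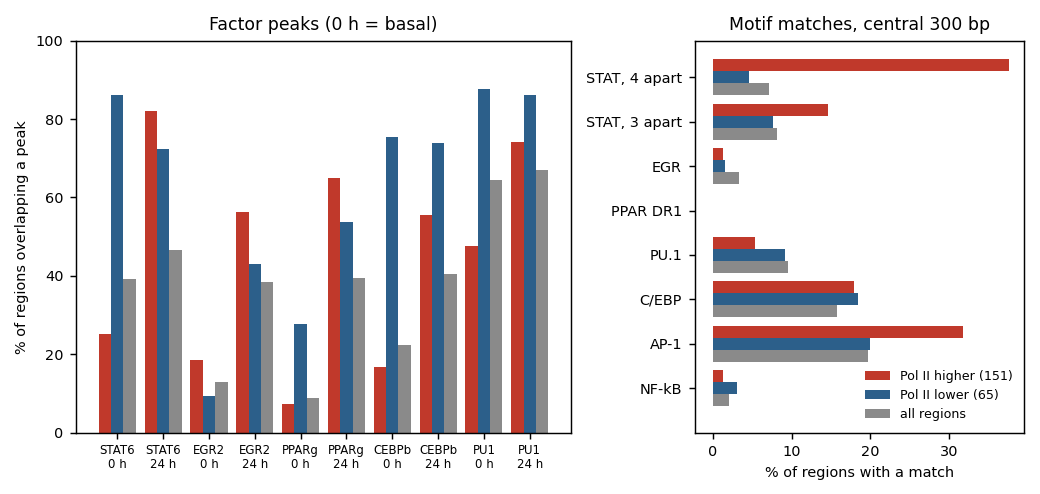
Left, percent of called regions that overlap a reproducible peak of each transcription factor in basal cells (0 h) and after 24 h of IL-4; right, percent with a match to each motif in the central 300 bp; red is the 151 regions with higher Pol II, blue the 65 with lower Pol II and grey all regions. STAT6 bars for rising regions go from 25.2% in basal cells to 82.1% at 24 h, and the STAT half-site pair 4 bases apart is in 37.7% of rises against 7.19% of all regions.

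A rule of size on Pol II alone, with the fold the study used jointly on H3K27ac and Pol II, gave a wider set. Group means at least 2.5-fold apart after adding 1 tag, with a mean of at least 8 normalized tags in either group, were found at 2190 regions (3.23%), 1063 higher (1.57%) and 1127 lower (1.66%). Of promoters 1.4% passed it, 72 higher (0.597%) and 97 lower (0.804%), and of distal regions 3.74%, 928 higher (1.84%) and 958 lower (1.9%). Of the called regions 150 of 151 rises and all 65 falls were among them. Of those 1063 and 1127, 696 and 712 had libraries that did not overlap, as did 3.3% of all regions in the higher and 5.29% in the lower direction. The fold rule picked its regions from the same libraries, so this is no separate support.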

How the data were processed

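Pol II ChIP-seq libraries of C57BL/6J macrophages, 3 at 24 h of IL-4 and 4 basal, were compared over the regions of 1 table. The authors mapped reads with Bowtie2 to mm10, built HOMER tag directories, merged reproducible open chromatin peaks of both conditions and deposited, per 1000-bp region, a signal of tags scaled to 10000000 per library. The authors called transcription factor peaks with HOMER, kept the reproducible ones and deposited 1 list per condition with a reproducibility score, used here only to halve each list. All 474194 Pol II values (100.0%) came out as whole reads within 0.1 read, and these reads served the count tests. Across the deposited files, 4 value columns matched no sample and were not used.

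Log2(normalized tags + 1) was fitted with limma 3.58.1 (trend) in R 4.3.3 over the 7 libraries, with Benjamini-Hochberg adjustment over 67742 regions and a threshold of 0.05. The fold rule asked for group means 2.5-fold apart after adding 1 and 8 normalized tags in either mean. Named regions were the 10 called promoters (by gene) and 10 called distal regions with the largest rise and fall, and up to 4 genes of each list by size of change; other names were chosen after their values were seen. Gene starts came from GENCODE M21, and a gene's start region lay within 1 kb of it. The members and lists were chosen with earlier results of these data known. The other strains were fitted the same way.

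Same-numbered libraries had deviations from their group means that correlated at 0.191, 0.297 and 0.395. The 43520 regions with a mean of at least 8 normalized tags were used. Different-numbered libraries of the same set correlated too, 24 h replicate 1 with basal replicate 2 at 0.272 and 24 h replicate 2 with basal replicate 1 at 0.232. The replicate numbers were taken as a block on this measure alone, and basal replicate 4 had no partner. Different sets anticorrelated (-0.219 to -0.46), and 24 h replicate 3 correlated with basal replicate 4 at 0.452. No replicate pair was identical, with a chi-square per degree of freedom of 6.66 to 17.9. Depth was 7796479 to 21973750 tags, and intervals cover counting error only. Alternatives were edgeR 4.0.16, DESeq2 1.42.0, other pseudocount, filter and scaling, the replicate block and leaving out each library. The scripts were tested on simulated data.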

Additional observations from a re-analysis of the deposited data

Results flagged for a closer look

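Among 40 groups of 4 basal libraries at the named regions, 1 held a library far from the others, and chance flags about 1 in 20 such groups. At the falling intergenic region 64.7 kb from St3gal5, basal replicate 3 had 100.2 normalized tags, and the other basal libraries had 60.5, 61.0 and 65.8. All 4 were above the highest library at 24 h, which had 20.7.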

How the results depend on the processing

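Of the 216 called regions, 206 stayed called with the replicate block, which called 548 in all, 55 promoter and 451 distal. Median-ratio scaling called 397 regions (330 distal), edgeR 386 (325 distal) and DESeq2 1099 (96 promoter, 923 distal), and the library set as a term, added after seeing the data, 1563 (138 promoter, 1327 distal). Leaving out 1 library gave 0 to 689 regions in all, 0 to 67 promoters and 0 to 583 distal regions. The counts of 0 by limma came without 24 h replicate 2, when 610 promoters and 4532 distal regions had an unadjusted p under 0.05, and for promoters without 24 h replicate 1, when 305 had. The fold rule gave 991 regions with a pseudocount of 5 and 4506 with a fold of 2. Halving the peak lists by score left overlaps with rises of 49 for C/EBPb at 24 h, 14 for basal C/EBPb, 14 for basal EGR2, 3 for basal PPARg, 44 for basal PU.1 and 22 for basal STAT6, and with falls of 11 for EGR2 and 30 for STAT6 at 24 h. The median of the IL-4 response factors was 0.45 with all libraries and 0.27 to 0.76 with 1 left out, and that of macrophage lineage factors was -0.26 and -0.4 to 0.2. The cause of these shifts was not tested. The filter of at least 8 normalized tags left out Egr3. Otherwise the 43 called named regions kept their direction under every alternative. For leaving out a library this was fixed in advance, since their 24 h and basal libraries did not overlap. With the block Egr3 lost its call, and the promoters of Cish, Batf3, Irf4, Tlr2 and Msx3 gained one. Depth limits the low regions most: 1 read was worth 1.2826 normalized tags in the shallowest library.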
